A study of Mus musculus with 4 samples.

Results

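The genes described here are 43 genes of DNA replication and of entry into S phase, followed in CD8+ T cells recovered from mouse tumors. They were chosen by gene symbol from a list of replication and G1/S genes, and all 43 were found among the 15981 genes listed across the deposited tables. The cells were Thy1.1+ Pmel-1 CD8+ T cells, which carry a transgenic T cell receptor against a melanoma antigen. Tc9 cells, the IL-9–producing type, had been polarized in vitro with IL-4, TGF-β and an antibody against IFN-γ, and Tc1 cells, the IFN-γ–producing type, with IL-2. After 5 days of culture either cell type was transferred i.v. to B6 (C57BL/6) hosts that were Thy1.2+ and had carried s.c. tumors of B16, a mouse melanoma cell line, for 10 days. The study's tumor protocol gave mice of both groups cyclophosphamide before transfer, and peptide-pulsed dendritic cells and IL-2 with it. The transferred cells were sorted from the tumors 14 days after transfer, and their RNA was pooled across mice into 2 libraries per group. The labels give neither the age of the mice nor which mice entered which pool, so p-values measure the spread between these pools only.

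The 4 tables end at different points in an ordered list of gene identifiers. Tc9 replicate 2 reached all 43 genes, Tc1 replicate 2 reached 34, Tc9 replicate 1 reached 16 and Tc1 replicate 1 reached 7. The replication and G1/S genes therefore fall into 4 tiers of evidence. In all 4 libraries 7 genes were measured, a further 9 were measured in Tc1 replicate 2 and both Tc9 libraries, a further 18 were measured in the replicate 2 libraries only, and 9 were read in Tc9 replicate 2 alone. Depth was 30822953 to 31927162 counts per library. All 9 T cell identity genes looked up (*Cd3d*, *Cd3e*, *Cd3g*, *Cd8a*, *Cd8b1*, *Thy1*, *Cd2*, *Cd5* and *Lck*) were present, with a summed level of 2095 FPKM (fragments per kilobase, scaled to depth) in Tc1 and 2162 FPKM in Tc9 replicate 2. Single genes differed in either direction, with log2 ratios of Tc9 to Tc1 from 1.06 for *Cd3e* to -0.52 for *Cd2* and -0.54 for *Cd5*. Of 8 melanoma genes, 5 (*Tyrp1*, *Dct*, *Mlana*, *Sox10* and *Gpnmb*) were not listed in any table, and *Pmel*, *Tyr* and *Mitf* summed to 0.57 and 0.97 FPKM in the same libraries. In a table that ends early, a missing gene may only mean that its identifier was not reached. Of 9 myeloid genes listed, 7 lay at or under 3 counts in each of these libraries, *Lyz2* at 0 in both, and *Cd68* made up most of their summed 6.38 and 14.0 FPKM. The exceptions beside *Cd68* were *Itgam*, at 12 and 2 counts, and *Cx3cr1*, which T cells can also express, at 3 and 132 counts. The B cell list summed to 4.68 and 14.2 FPKM, nearly all of it *Cd79b*, with *Ms4a1* at 2 and 1 counts. The NK cell list summed to 0.17 and 0.02 FPKM, and the endothelial and fibroblast list, nearly all of it *Pecam1*, to 4.30 and 4.46 FPKM.

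Before a cell can copy its DNA, the origin recognition complex, *Cdc6* and *Cdt1* load a ring of the MCM proteins onto origins, which is called licensing. At the G1/S transition, cyclin E with its kinase, activated by the phosphatase *Cdc25a*, lets E2F factors switch on many genes of S phase. *Cdc45* and the GINS proteins then turn the ring into an active helicase, and polymerases, the *Pcna* clamp and nucleotide-making enzymes carry out synthesis. In T cells these genes are induced when the cell divides after antigen contact. In bulk RNA, fewer cycling cells and less of these transcripts per cell cannot be told apart.

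Many of these genes carry the same short E2F-type letters around their start site, and 7 promoters are shown as examples, to let the letters be seen in place before the annotated gene. *Chaf1b*, *Rfc3* and *Rrm2* also held them there and are not shown. The letters searched were TTCCCGC as the first form, TTGGCGC as the second form, TTCGCGC as the third form and TTGCCGC as the fourth form, on both strands, in a window from 250 bases before to 50 bases after each start site of the RefSeq table (GRCm38.p6). Matches may overlap one another, as in *Mcm6*, where each run of capitals holds a match on either strand. The table held no promoter for *Ccne2*, *Gins1*, *Gins2*, *Mcm4*, *Pole*, *Prim2* and *Rfc2*. Of 36 genes with a promoter in the table, 22 (61.1%) held a match, beside 18.2% of all genes listed in the deposited tables that had a promoter there and 10.9% of all genes in the promoter table. Wholly before the start site a match was found in 16 of the 36 (44.4%), beside 15.2% of the listed genes, and *Cdt1*, *E2f2*, *Lig1*, *Mcm3*, *Pold1* and *Rfc4* held theirs only from the start site on. A second promoter element, the letters CCAAT, was found in 58.3% of the 36 genes and in 42.7% of the listed genes. The promoters are rich in G and C, with a median of 59.8% against 52.7% for all promoters, and among promoters at or above that value 19.9% held the E2F-type letters. Only bases before the annotated gene are printed, with matches in capitals. They belong to *Mcm6* (chr1:128359722-128359834, minus strand) and *Mcm5* (chr8:75109325-75109386, plus strand) of the helicase, *Prim1* (chr10:128015155-128015214, plus strand) of primase, *Rrm1* (chr7:102441595-102441654, plus strand) of ribonucleotide reductase, *Rpa2* (chr4:132768290-132768349, plus strand) of the single-strand binding complex, and *Uhrf1* (chr17:56303256-56303315, plus strand) and *Chaf1a* (chr17:56040336-56040395, plus strand), which act on new chromatin.
Mcm6: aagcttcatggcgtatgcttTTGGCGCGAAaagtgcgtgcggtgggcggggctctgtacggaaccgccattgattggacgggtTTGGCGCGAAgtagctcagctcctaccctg
Mcm5: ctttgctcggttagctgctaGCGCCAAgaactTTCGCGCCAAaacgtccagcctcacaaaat
Prim1: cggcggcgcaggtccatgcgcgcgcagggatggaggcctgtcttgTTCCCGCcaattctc
Rrm1: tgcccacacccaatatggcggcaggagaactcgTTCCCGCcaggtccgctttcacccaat
Rpa2: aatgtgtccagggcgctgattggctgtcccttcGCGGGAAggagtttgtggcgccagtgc
Uhrf1: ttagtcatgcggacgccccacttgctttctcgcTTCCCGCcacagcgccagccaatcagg
Chaf1a: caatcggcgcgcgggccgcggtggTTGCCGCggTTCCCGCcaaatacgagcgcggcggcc

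Every one of the 43 genes was expressed above the median listed gene in Tc9 replicate 2. Their median level was 39.0 FPKM, against 6.33 FPKM over the 14113 named genes listed there, and each had at least 727 counts. *Pcna*, the sliding clamp that holds polymerases on DNA, was the most abundant per length, at 353 FPKM, and *Pola1*, the catalytic subunit of DNA polymerase α, the least, at 6.72 FPKM. Levels are compared between genes in FPKM only, since counts grow with gene length. The plot of FPKM by gene shows Tc1 replicate 2 above Tc9 replicate 2 for all but 3 of the genes read in both.

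**Figure D1:**
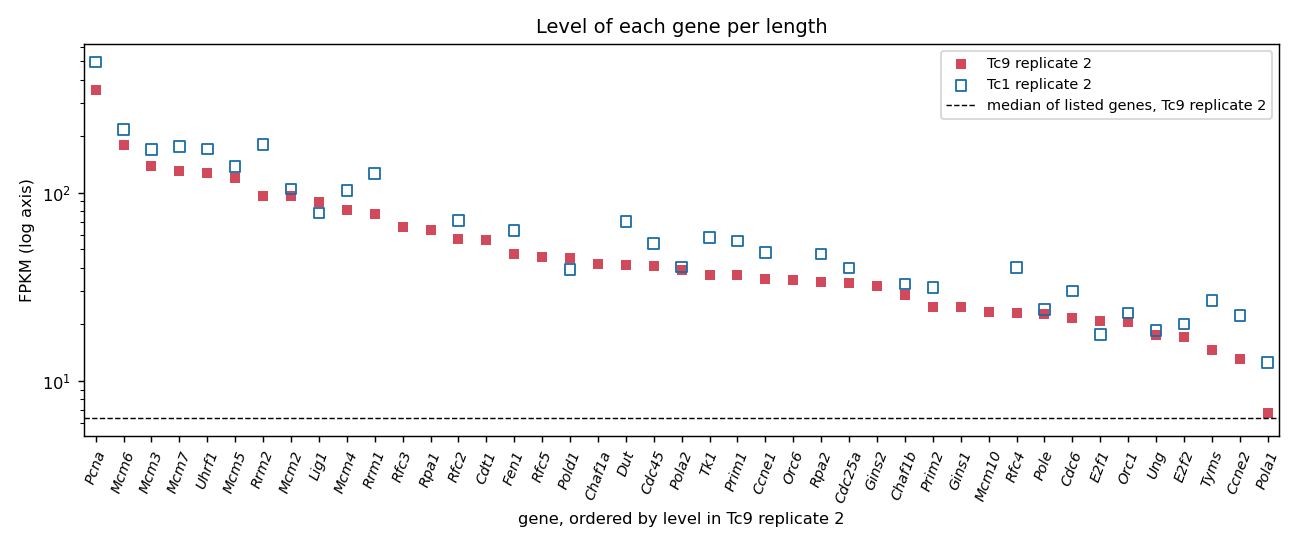
Level of each of the 43 genes in FPKM (log axis) in Tc9 replicate 2 (filled squares) and, for the 34 genes it reaches, Tc1 replicate 2 (open squares), with the median of listed genes as a dashed line at 6.33. All filled squares lie above the line, and *Lig1*, *Pold1* and *E2f1* are the only genes whose filled square is above the open one.

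Where both groups had replicates, *Dut*, *Ccne1*, *Ccne2*, *Cdc45* and *Rfc4* fell in Tc9 cells, and *Cdc25a* and *Chaf1b* did not pass the test. All 7 genes measured in 4 libraries had both Tc9 libraries below both Tc1 libraries, which was the case in this direction for 35.7% of the 1284 genes tested. Of the 7, 5 passed an adjusted p of 0.05 in edgeR's quasi-likelihood test and all 5 were lower in Tc9 cells, beside 16.7% of all genes tested called lower, 17.4% called higher and 34.1% called in either direction. The median log2 fold change of the 7 was -0.53, against 0.0014 over all genes tested. An exact permutation test of a lone gene on 2 against 2 libraries cannot go below p = 0.333, so the calls rest on the spread that edgeR shares across genes.

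*Dut* (identifier 110074), the dUTPase that keeps uracil out of DNA, gave 4757 and 4982 counts for Tc1 against 3428 and 2822 for Tc9 cells. The lowest Tc1 library was well above the highest Tc9 library. In edgeR its log2 fold change, given here and below with its standard error, was -0.64 ± 0.12 (adjusted p = 0.00408), so that it fell by 35.7%.

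The cyclins E, which drive the G1/S kinase, fell to a like degree. *Ccne1* (12447) gave 3014 and 2970 counts for Tc1 against 1914 and 2083 for Tc9 cells (edgeR, -0.58 ± 0.11, adjusted p = 0.00397). *Ccne2* (12448) gave 2040 and 2058 counts for Tc1 against 1537 and 1169 for Tc9 cells (edgeR, -0.60 ± 0.14, adjusted p = 0.0105). The Tc1 libraries nearly coincided for both cyclins, while the Tc9 libraries of *Ccne2* were further apart. *Cdc25a* (12530), the phosphatase that activates the cyclin E kinase, gave 4456 and 4470 counts for Tc1 against 3762 and 3570 for Tc9 cells, with no overlap. Its log2 fold change of -0.28 (standard error 0.11) did not pass the threshold (adjusted p = 0.0681 in edgeR).

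*Cdc45* (12544), the helicase cofactor, fell by 27.9%, with 3432 and 3439 counts for Tc1 against 2419 and 2526 for Tc9 cells (edgeR, -0.47 ± 0.11, adjusted p = 0.00894). *Rfc4* (106344), a subunit of the clamp loader, gave 1294 and 1388 counts for Tc1 against 1080 and 775 for Tc9 cells. Its Tc9 libraries differed more from each other than those of any other gene of the 7, and the log2 fold change was -0.53 ± 0.16 (edgeR, adjusted p = 0.0274). *Chaf1b* (110749), of the complex that places histones on new DNA, gave 1694 and 1852 counts for Tc1 against 1347 and 1575 for Tc9 cells. Its groups did not overlap, and its log2 fold change of -0.28 (standard error 0.12) did not pass the threshold (adjusted p = 0.113 in edgeR).

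The 5 calls depended on having both Tc1 libraries, which lay close together. Without Tc1 replicate 1, and likewise without Tc1 replicate 2, none of the 7 genes passed in edgeR, beside 2.96% and 4.1% of all genes called lower, while 3 had an unadjusted p under 0.05 in either case, beside 24.7% and 23.9% of all genes. The log2 fold changes in these fits lay between -0.67 and -0.21. Without Tc9 replicate 1, 6 genes passed, *Cdc25a* being added, and without Tc9 replicate 2 all 7 did, in fits that called 31.1% and 26.8% of all genes lower, more than the 16.7% over 4 libraries. There the log2 fold changes lay between -0.81 and -0.17, and those of *Rfc4* (-0.79 without Tc9 replicate 1 and -0.31 without Tc9 replicate 2) and *Chaf1b* (-0.17 and -0.39) moved by more than 1.5 times from their values over 4 libraries in one of them. In all of these fits the lone library was assumed to vary like the group that still had a pair. With no filter on low counts 3 genes passed, beside 6.56% of all genes called lower, as *Rfc4* (adjusted p = 0.131) and *Ccne2* (adjusted p = 0.0777 in edgeR) did not.

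**Figure D2:**
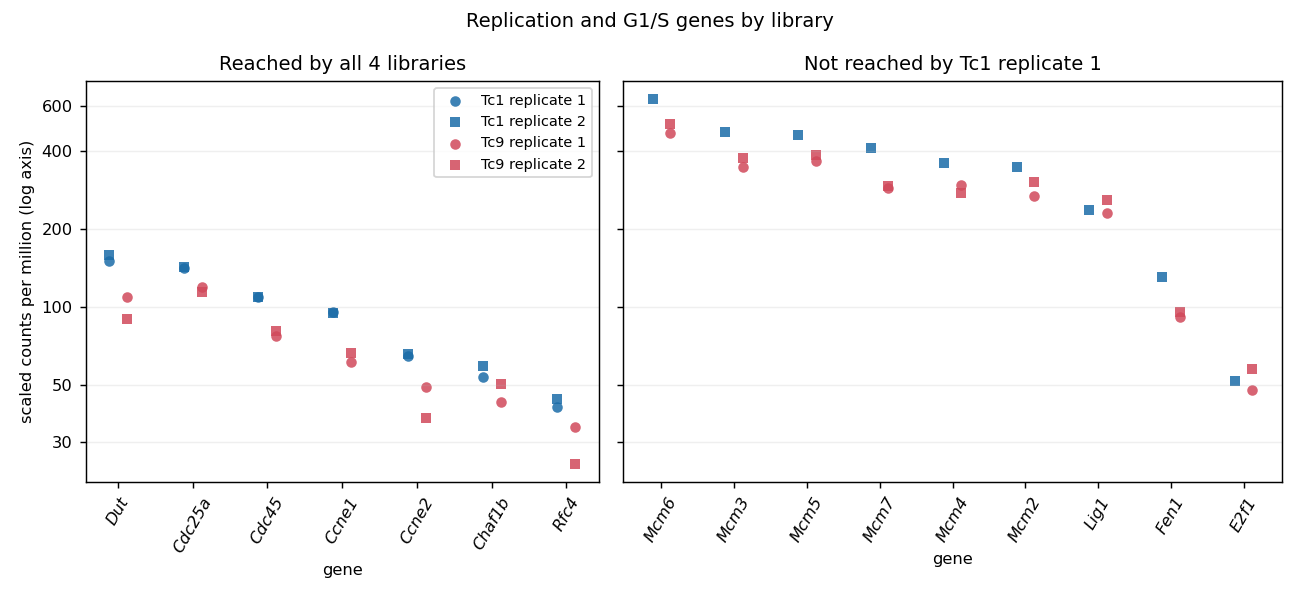
Scaled CPM, counts relative to depth (log axis), in each library for the 7 genes reached by all 4 tables (left) and the 9 not reached by Tc1 replicate 1 (right), with Tc1 in blue, Tc9 in red, replicate 1 as circles and replicate 2 as squares. In the left panel every Tc9 point lies under every Tc1 point of its gene, and in the right panel this fails for *Lig1* and *E2f1*, whose Tc9 points lie on either side of the Tc1 point.

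The 6 subunits of the MCM ring, *Mcm2* to *Mcm7*, were all lower in both Tc9 libraries than in the Tc1 library that reaches them. *Mcm6* (17219) gave 19944 counts in Tc1 replicate 2 against 14806 and 15941 for Tc9 replicates 1 and 2. *Mcm3* (17215) gave 14883 counts for Tc1 against 10944 and 11772 for Tc9 cells. *Mcm5* (17218) gave 14542 counts for Tc1 against 11483 and 12165 for Tc9 cells. For these 3 subunits the Tc9 libraries were within 0.11 of each other on the log2 scale.

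*Mcm7* (17220) showed the widest gap of the ring, with 12891 counts in Tc1 replicate 2 against 9086 and 9202 for Tc9 cells. *Mcm4* (17217) gave 11339 counts for Tc1 against 9290 and 8623 for Tc9 cells. *Mcm2* (17216) showed the narrowest gap to the mean of the Tc9 libraries, with 10873 counts for Tc1 against 8435 and 9560 for Tc9 cells. Against Tc9 replicate 1 alone the gap was narrower for *Mcm4* (log2 ratio -0.29) and *Mcm5* (-0.34) than for *Mcm2* (-0.37). Per length, *Mcm6* was the highest subunit and *Mcm4* the lowest in both replicate 2 libraries, at 217 and 103 FPKM in Tc1 and 180 and 81.1 FPKM in Tc9 cells.

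In edgeR's quasi-likelihood test over these 3 libraries, where the Tc1 library has no replicate and is taken to vary like the Tc9 pair, the log2 fold changes of the ring ran from -0.27 for *Mcm2* (standard error 0.22, adjusted p = 0.453) to -0.49 for *Mcm7* (standard error 0.20, adjusted p = 0.189). No subunit passed the threshold. For *Mcm2*, Tc9 replicate 2 lay as far from Tc9 replicate 1 as from the Tc1 library, 0.18 on the log2 scale, while for the other subunits the Tc9 libraries lay closer to each other than to the Tc1 library.

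Of the other genes in this tier, *Fen1* (14156), the nuclease that trims Okazaki fragments, gave 4115 counts in Tc1 replicate 2 against 2866 and 3006 for Tc9 cells (edgeR, -0.49 ± 0.21, adjusted p = 0.202). Its partner *Lig1* (16881), the ligase that seals the same fragments, gave 7424 counts for Tc1 against 7273 and 8154 for Tc9 cells. *E2f1* (13555), an activating E2F factor, gave 1616 counts for Tc1 against 1491 and 1802 for Tc9 cells. For *Lig1* and *E2f1* the Tc1 library lay between the Tc9 libraries, with log2 fold changes of 0.056 (standard error 0.22) and 0.028 (standard error 0.23), so no difference was detectable in either direction.

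Over all 16 genes in the range of the 3 libraries, none passed an adjusted p of 0.05 in edgeR's quasi-likelihood test, beside 3.2% of 2622 genes called lower, 7.51% called higher and 10.7% called in either direction. An unadjusted p under 0.05 was reached by 3 of the 16 (*Dut*, *Ccne1* and *Ccne2*), beside 26.7% of all genes. DESeq2 called 1 of the 16 (*Dut*, lower), beside 12.9% of all genes called in either direction and 4.61% called lower. In DESeq2 7 of the 16 had an unadjusted p under 0.05, beside 24.3% of all genes. The limma fit on log2(FPKM + 1) called 0, beside 13.8%, and 2 had an unadjusted p under 0.05, beside 26.8%. Set against calls in either direction, the adjusted shares of the 16 were no higher than among all genes. The unadjusted share was higher in DESeq2 and lower in edgeR and limma. In 14 of the 16 both Tc9 libraries lay below the Tc1 library, beside 37.8% of all genes tested, and the median log2 fold change was -0.38 against 0.049 over all genes.

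Most of the list, 34 genes, could be compared between Tc1 replicate 2 and Tc9 replicate 2, with 1 library on each side and so no test. Every one of the 34 had at least 775 counts in both libraries. Of these genes, 31 were lower in Tc9 replicate 2 (91.2%), beside 47.6% of the 6226 genes compared, and the 3 that were higher were *E2f1*, *Pold1* and *Lig1*. Their median log2 ratio was -0.40, with quartiles of -0.54 and -0.24, against a median of 0.031 and quartiles of -0.33 and 0.48 over all genes. More than 1.5 times lower were 7 of the 34, beside 12.8% of all genes, and none was more than 1.5 times higher, beside 21.0% of all genes. Among the 3182 genes with at least 700 counts in both libraries, 52.6% were lower and 9.05% were more than 1.5 times lower. The shift was thus spread over nearly all genes of the list at a modest size rather than held by a few large changes, as the histogram of all ratios shows. Between the Tc9 libraries, 95% of genes this abundant differed by at most 0.49 on the log2 scale, and 12 of the 34 genes lay beyond that between the replicate 2 libraries, all lower in Tc9, beside 27.4% of the 3182 abundant genes beyond it in either direction and 13.6% lower.

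**Figure D3:**
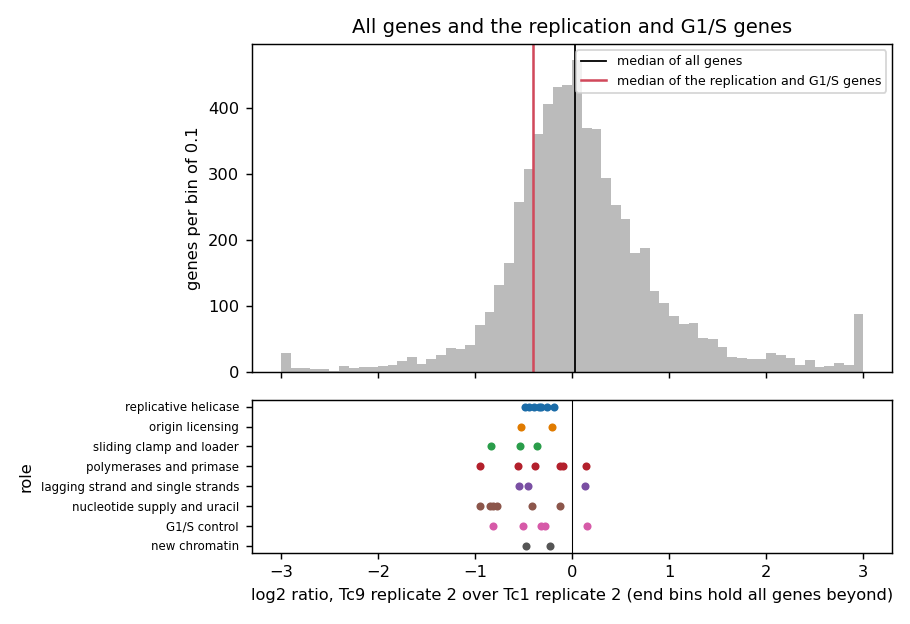
Upper panel, number of genes per bin of the log2 ratio of Tc9 replicate 2 to Tc1 replicate 2 over all 6226 genes, with their median (black, 0.031) and that of the 34 replication and G1/S genes (red, -0.40); lower panel, each of the 34 genes on the same axis by role. The 34 genes lie between -0.95 and 0.16, and 31 of them lie left of 0.

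The enzymes that make and police DNA precursors had the lowest median ratio of any role. All 6 were lower in Tc9 replicate 2, with a median log2 ratio of -0.80, and 4 were more than 1.5 times lower. *Rrm2*, the regulated subunit of ribonucleotide reductase, stood at 11868 counts for Tc1 against 6140 for Tc9, a log2 ratio of -0.95 (95% Wilson interval from the counts -0.99 to -0.91). *Rrm1*, the large subunit of the same enzyme, had 15633 and 9136 counts, a log2 ratio of -0.77 (-0.81 to -0.74). *Tyms*, thymidylate synthase, had 2435 and 1356 counts, a log2 ratio of -0.84 (-0.94 to -0.75). *Dut*, called lower over 4 libraries as given above, had a ratio of -0.82 here and of -0.54 with Tc9 replicate 1 in place of replicate 2.

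The remaining genes of this role had smaller ratios. *Tk1*, thymidine kinase of the salvage route, had 3394 and 2552 counts and a log2 ratio of -0.41, or -0.64 on the log2(FPKM + 1) scale. *Ung*, the glycosylase that removes uracil from DNA, had 1047 and 961 counts, and its interval of -0.25 to 0.0036 was the only one of the 34 to include 0.

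The enzymes that copy DNA had the widest range of ratios of any role. *Pola1* had the lowest log2 ratio of the 34, -0.95 (-1.06 to -0.85), at 2095 counts for Tc1 against 1080 for Tc9. *Pola2*, the accessory subunit of the same polymerase, had 2933 and 2743 counts, a log2 ratio of -0.096 (-0.17 to -0.021). The subunits of the primase that completes this complex lay between them, with log2 ratios of -0.56 for *Prim1* (2560 and 1733 counts) and -0.38 for *Prim2* (1847 and 1416 counts). The genes of 1 complex thus did not share 1 ratio.

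The catalytic subunits of the polymerases that extend the leading and lagging strands stood close to 0. *Pole*, of polymerase ε, had 5404 and 4944 counts and a log2 ratio of -0.13 (-0.18 to -0.072). *Pold1*, of polymerase δ, had 4185 and 4619 counts and was higher in Tc9 replicate 2, with a log2 ratio of 0.14 (0.083 to 0.20). These values are within the spread between the Tc9 libraries.

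The sliding clamp and its loader were lower in Tc9 replicate 2. *Pcna* stood at 17718 counts for Tc1 against 12197 for Tc9, a log2 ratio of -0.54 (-0.57 to -0.50). *Rfc2*, of the loader, had 3130 and 2430 counts (log2 ratio -0.36), and *Rfc4* had a log2 ratio of -0.84 here and of -0.36 with Tc9 replicate 1 in its place. The single-strand binding subunit *Rpa2* had 2469 and 1690 counts, a log2 ratio of -0.55.

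In origin licensing, *Cdc6*, which loads the MCM ring, had 4235 and 2943 counts (log2 ratio -0.52), while *Orc1*, the largest subunit of the origin recognition complex, had 2115 and 1827 counts (log2 ratio -0.21). *Uhrf1*, which reads hemimethylated DNA behind the fork and brings the maintenance methyltransferase, had 18755 and 13457 counts (log2 ratio -0.48). *E2f2*, an activating E2F factor like *E2f1*, had 2903 and 2385 counts, a log2 ratio of -0.28 (-0.36 to -0.20), where *E2f1* had 0.16 (0.061 to 0.25). These intervals cover counting error only, since no replicate enters them, and they compare 2 libraries, not the conditions. Whether the reads carry molecular identifiers is not given in the sources used here.

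**Figure D4:**
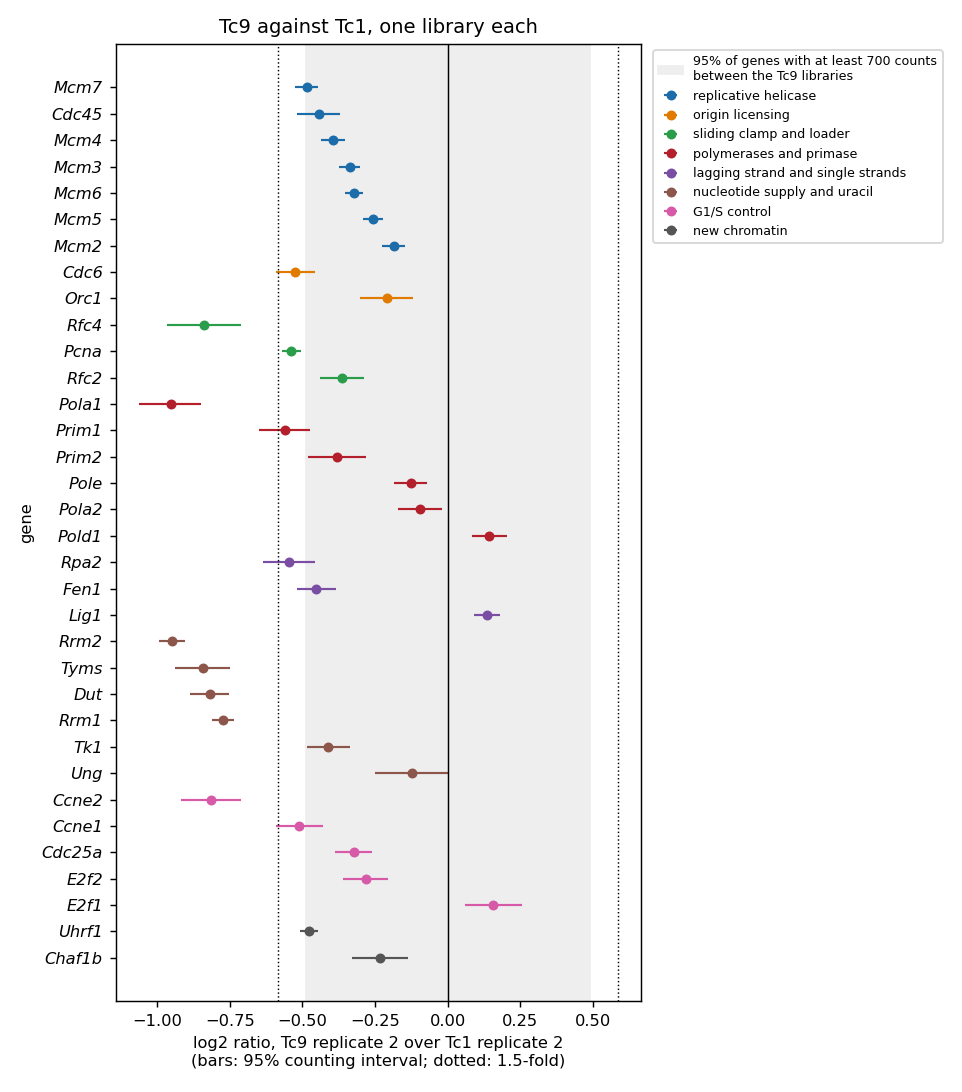
Log2 ratio of Tc9 replicate 2 to Tc1 replicate 2 for 34 genes, grouped and colored by role, with 95% counting intervals; dotted lines mark 1.5-fold and the gray band holds 95% of genes with at least 700 counts when the Tc9 libraries are compared with each other. The precursor enzymes *Rrm2*, *Tyms*, *Dut* and *Rrm1*, with *Pola1*, *Rfc4* and *Ccne2*, are left of the dotted line, and 3 genes are right of 0.

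The size of these ratios depended on which Tc9 library was used for some genes and little for others. With Tc9 replicate 1 in place of replicate 2, a comparison chosen after the data were seen, all 16 genes it reaches were lower than in Tc1 replicate 2, *Lig1* (log2 ratio -0.029) and *E2f1* (-0.12) included, beside 46.9% of 2629 genes, and the median was -0.42. More than 1.5 times lower was then 1 of the 16 (*Ccne1*, log2 ratio -0.63), beside 10.5% of all genes, a share no higher than the background, where 3 of the same 16 were with Tc9 replicate 2. Genes with and without the E2F-type letters had like ratios: the median was -0.45 over 19 genes with a match and -0.43 over 10 without, and *Dut*, *Tyms*, *Ccne1*, *Cdc45* and *Pcna* had none in the window searched.

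For 9 genes only Tc9 replicate 2 was read, so they have a level and no comparison. These were the clamp loader subunits *Rfc3* (65.6 FPKM) and *Rfc5* (45.7 FPKM), the single-strand binding subunit *Rpa1* (63.7 FPKM), and the licensing factors *Cdt1* (56.5 FPKM) and *Orc6* (34.4 FPKM). They also included the histone chaperone subunit *Chaf1a* (41.9 FPKM), and the helicase factors *Gins2* (31.9 FPKM), *Gins1* (24.6 FPKM) and *Mcm10* (23.4 FPKM). All 9 lay above the median listed gene.

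Other genes of replication and the G1/S switch, 90 symbols written out apart from the 43, were examined in the same way, and 88 were listed. Of 17 tested over 4 libraries, 7 were called lower and 1 higher in Tc9 cells by edgeR, beside 16.7% and 17.4% of all genes tested, with a median log2 fold change of -0.17 against 0.0014. Those called lower were *Brca1* (-0.76, adjusted p = 0.0013), *Ccnd2* (-0.63, adjusted p = 0.00178), *Cdkn2c* (-0.60, adjusted p = 0.0178), *Gins4* (-0.51, adjusted p = 0.0104), *Cdkn1a* (-0.49, adjusted p = 0.0163), *E2f8* (-0.43, adjusted p = 0.0193) and *Ccna2* (-0.42, adjusted p = 0.0173). They include genes that push the cycle on (*Ccnd2*, cyclin D2, and *Ccna2*, cyclin A2), genes that hold it back (*Cdkn2c* and *Cdkn1a*, inhibitors of cyclin-dependent kinases), a repressor of the E2F program (*E2f8*) and a helicase factor (*Gins4*).

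*Cdk6*, a kinase partner of the D cyclins, was called higher, with 16056 and 15739 counts for Tc1 against 21502 and 21307 for Tc9 cells (edgeR, 0.43 ± 0.096, adjusted p = 0.0076). *Ccnd2*, one of its cyclins, gave 40974 and 41958 counts for Tc1 against 28628 and 24703 for Tc9 cells. The groups did not overlap for either gene, and they moved in opposite directions.

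Without Tc1 replicate 1 none of the 17 genes was called in edgeR, beside 8.43% of all genes (5 with an unadjusted p under 0.05, beside 24.7%), and without Tc1 replicate 2 only 1 was, beside 10.3%. Without Tc9 replicate 1 and without Tc9 replicate 2 the count was 10 and 12, beside 61.9% and 53.0% of all genes. With no filter on low counts 3 were called in place of 8, beside 14.3%. Over 3 libraries, 23 could be tested and none passed in edgeR, beside 10.7% of all genes (5 had an unadjusted p under 0.05, beside 26.7%). DESeq2 called 3, beside 12.9%, and edgeR itself called 4 with scaling by depth alone, with TMM factors (scaling for library composition) of the range compared and with a filter of 50 counts, beside 20.4%, 20.4% and 20.8% of all genes.

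Between the replicate 2 libraries, 40 of 50 genes of this second list were lower in Tc9, beside 47.6% of all genes, 15 of them more than 1.5 times, beside 12.8% of all genes, and the median was -0.31 on the log2 scale. Among the lowest were *Umps* (-0.97), of pyrimidine synthesis, and *Brca1* (-0.88), of DNA repair. The 4 highest were *Cdkn1c*, at 6 and 15 counts, *Cdk6* (0.44), the pocket protein *Rbl2* (0.42) and *Rmi2* (0.26).

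General markers of cycling cells gave a mixed picture beside these values. *Mki67*, which encodes the antigen Ki-67 of dividing cells, gave 40271 counts in Tc1 replicate 2 against 40360 and 37670 for Tc9 cells (edgeR, -0.045 ± 0.19, adjusted p = 0.896). *Top2a*, the topoisomerase of dividing cells, had 25643 and 19020 counts in the replicate 2 libraries, a log2 ratio of -0.43. The part of the share of cycling cells in the lower replication transcripts was not tested.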

How the data were processed

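RNA-Seq was run on Tc1 and Tc9 cells sorted from tumors, with 2 libraries of pooled RNA for each. The authors deposited, for each library and gene, an expected count (estimated reads, not normalized), an FPKM value and a gene length. The submitters' processing notes name the build mm10; the aligner, the counter, its strand setting and the test are not given in the sources used here. The genes and lists were chosen with earlier results of these data known.

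Since the tables list no gene at 0, genes missing inside the identifier range of a table were set to 0 counts, and 1 incomplete last row was dropped. Depth came from the ratio of count to FPKM relative to Tc9 replicate 2, over genes whose length was the same in both and whose counts reached 500. Expected counts were rounded and scaled by depth and by TMM factors of the range that all libraries reach (0.983 to 1.02). A level of 3 counts equals 0.0940 to 0.0973 CPM. Of the counts, 13.0% to 18.0% per table were not whole, among them those of *Rfc4*, *Ccne1*, *Ccne2*, *Tyms*, *Ung* and *Uhrf1*, so reads of these genes may be shared with other loci.

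The test was edgeR 4.0.16 (quasi-likelihood, two-sided, filterByExpr with a minimum count of 10, Benjamini-Hochberg over all genes) in R 4.3.3. Standard errors were the fold change over the square root of F. Ratios of the replicate 2 libraries used a prior count of 2 and genes with at least 10 counts in either library, and their Wilson intervals (95%) and the floors cover counting error only. A chi-square per gene of 4.40 between the Tc1 and 40.9 between the Tc9 libraries exceeded sampling noise, so each library counted once. On simulated counts for 1284 genes in 4 libraries, edgeR recovered 89% of genes changed by 1 on the log2 scale. For 2622 genes in 3 libraries it recovered 84%. Every simulated gene and library had the same variation, while the real Tc9 libraries differed more than the Tc1 libraries. The log2 fold changes of the replication and G1/S genes were also all smaller than 1. These shares therefore do not give the power for the genes described. Alternatives used limma 3.58.1 and DESeq2 1.42.0. Promoters came from RefSeq (GRCm38.p6, the assembly of mm10), and 36 of the 43 genes matched by identifier. The genes named are all 43, and of the second list those called over 4 libraries and the 4 lowest and 4 highest ratios. Some of the genes this rule names are not reported here. *Mki67* and *Top2a* were on a list of cycling markers, and *Dut*, *Lig1* and others singled out in comparisons were chosen after their values were seen.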

Additional observations from a re-analysis of the deposited data

How the results depend on the processing

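Of the 33 values recomputed for the 4 summary results, 24 stayed near the reported value and 9 moved further, and the cause was not tested for any of them. Near meant within 1.5 times a count. For the median ratio it meant within 0.042, the standard deviation of the median of 16 genes between the Tc9 libraries. Over 4 libraries, the count of 5 called genes became 3 with no filter on low counts and lay between 0 and 7 with a library left out, and no log2 fold change of the 7 genes turned positive under any alternative. With the replicate block the count was again 5, for the same 5 genes, beside 34.6% of all genes called and 16.6% called lower, and the block changed no call among the 7 genes. The labels give same-numbered libraries no more than a shared number. Their deviations correlated at -0.064, a value from so few libraries that it cannot show whether they share anything else. No block could be fitted over 3 libraries, which hold 1 Tc1 library. There the count of 0 became 1 with DESeq2 (*Dut*) and 2 with TMM factors of the range compared (*Dut* and *Ccne2*). With a stricter filter of 50 counts it became 1 (*Dut*). In the same order, 12.9%, 20.4% and 20.8% of all genes were called in either direction, and the counts are no higher than that background. All these calls were lower in Tc9 cells, and 4.61%, 7.93% and 7.89% of all genes were called lower. Against those shares the counts are higher with DESeq2 and with TMM factors of the range compared, but not with the stricter filter. Counts of 1 or 2 genes among 16, with 1 Tc1 library, are too few to decide between these readings. The sign turned for *E2f1*, to -0.016 with DESeq2, to -0.0018 with TMM factors of the range compared and to -0.12 without Tc9 replicate 2, and for *Lig1*, to -0.029 without Tc9 replicate 2; without Tc9 replicate 1 they were 0.16 and 0.14. Between the replicate 2 libraries, the 7 genes beyond 1.5-fold became 0 at a fold of 2 and 1 of 16 with Tc9 replicate 1 in place of replicate 2, and the median ratio was -0.35 with depth alone, which also moved the median of all genes from 0.031 to 0.081. In every setting that kept the 34 genes, 31 of them were lower in Tc9. Upper quartile factors, FPKM with limma and the other prior count left the summary counts within 1.5 times.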

Other observations

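The tables give a length for each gene in each library, an average over its transcripts. For 3 of the 34 genes it differed by more than 5% between the replicate 2 libraries, beside 3.90% of the 3182 genes with at least 700 counts in both. *Tk1* was 21.0% longer in Tc9 replicate 2 than in Tc1 replicate 2, a difference of over 20% being found in 0.283% of those genes. *Prim1* was 5.55% longer and *Tyms* 5.03% longer. Since FPKM divides by this length, the ratio of *Tk1* was lower in FPKM than in counts.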
